A study of Mus musculus with 72 samples.

Results

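The 9 genes described here, Mbp, Mog, Mag, Mobp, Cnp, Cldn11, Ermn, Opalin and Sox10, encode proteins of the myelin sheath and of the oligodendrocytes that make it. They were chosen by name, as a list of known myelin and oligodendrocyte genes, and form 9 of the 53715 gene rows of the count files. Their levels were followed in 36 brain libraries of male mice of 18 weeks, which fall into 6 groups of 6: cerebellum (Cb), hippocampus (Hc) and cerebral cortex (Co) of 6 Gnb5+/+ (wild-type, WT) and 6 Gnb5-/- (knock-out, KO) mice, each mouse having given all 3 regions. The knock-out allele, a germline deletion of exon 3 of Gnb5 on a C57BL/6J background, is present in every cell of the animal, and it removes the G-protein subunit beta 5. Each library held the RNA of a whole dissected region, and levels are relative to all reads of the library. A lower level can mean fewer oligodendrocytes, less RNA in each of them or more RNA from other cells. These cannot be told apart.

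Oligodendrocytes wrap axons of the central nervous system in layers of membrane, from which the cytoplasm is squeezed out to give compact myelin. They arise from dividing precursor cells under the transcription factors Olig2 and Sox10, and start the myelin genes as they mature under Myrf. MBP seals the cytoplasmic faces of compact myelin, and MOBP lies in the same layers. Claudin 11 forms the tight junctions between the wraps, MAG faces the axon from the innermost wrap, and MOG sits on the outer surface. CNP is an enzyme of the non-compact myelin, ermin binds actin in the oligodendrocyte, and OPALIN is a membrane protein of mature oligodendrocytes whose function is less well known.

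In brief, Opalin and Sox10 were lower and Cnp and Ermn were higher in cerebellum than in cortex, in both genotypes. Ermn passed the test in Gnb5-/- mice with cerebellar replicate 2 included, and not without it. In the reported fit, without a block for the mouse, the other 5 genes did not pass the test in that comparison. Of these, Cldn11 was called lower in Gnb5+/+ cerebellum with each mouse as a block (edgeR adjusted p = 0.0368). Mag and Mbp were called higher there under other settings given below. None of the 9 genes passed the test between Gnb5-/- and Gnb5+/+ mice in any of the 3 regions. The knock-out label itself was borne out by Gnb5, whose level in CPM, reads scaled to the TMM-normalized size of the library, fell from 145 ± 7.63 to 20.1 ± 1.38 in cerebellum, from 103 ± 4.76 to 13.4 ± 0.816 in hippocampus and from 135 ± 8.99 to 15.6 ± 2.28 in cortex (mean ± SD, n = 6), with no overlap between genotypes (two-sided exact permutation test, p = 0.00216 in each region, the smallest that 6 mice against 6 allow).

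Between 29204390 and 48807435 reads were counted on genes in a brain library, with a median of 42339164. The defining genes of cerebellar neurons (Pcp2, Gabra6, Cbln1 and Cbln3) summed to 3153 to 3635 CPM in the cerebellar libraries and to 3.75 to 41.4 CPM in the others. In 3 Gnb5-/- libraries a smaller share of the uniquely aligned reads lay outside genes than in the other brain libraries. It was 8.03% in cerebellar replicate 2, 6.86% in cortical replicate 3 and 8.32% in cortical replicate 5, against at least 11.7% elsewhere. Reads without a unique alignment were 24.3%, 27.5% and 23.1% in the same order, against at most 19.3% in the other brain libraries. Among Gnb5+/+ libraries, hippocampal replicate 3 had the highest level of its group for 8 of the 9 genes. Several of the results that rest on these libraries are given with and without them. The same genes were read from 36 heart libraries as a tissue without oligodendrocytes. These were atria and ventricles of Gnb5+/+, heterozygous Gnb5+/- and Gnb5-/- mice, the heterozygous ones being animals without brain libraries. There Mog, Ermn and Opalin had a median of 0 CPM, and Mag, Mobp and Cldn11 did not exceed 0.704 CPM. Sox10, Cnp and Mbp reached 2.16, 16.3 and 37.4 CPM. In brain the lowest value of any library was 2.74 CPM, for Opalin. Of the genes that mark Schwann cells, which make the myelin of peripheral nerves, Pmp2 was at 0 in 35 of 36 brain libraries and Prx did not exceed 0.978 CPM, while Drp2 had 1014 to 6633 reads and Ncmap 10 to 79 in each brain library, and the list summed to 26.9 to 156.7 CPM. The part of Schwann cells in the levels of the 9 genes was not tested.

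The genes lie on 9 different chromosomes of the mouse genome (GRCm38, 1-based): Mbp on 18 (82475146 to 82585637, + strand), Mog on 17 (37010743 to 37023398, -), Mag on 7 (30899176 to 30914873, -), Mobp on 9 (120149707 to 120181484, +), Cnp on 11 (100574904 to 100591729, +), Cldn11 on 3 (31149920 to 31164324, +), Ermn on 2 (58045113 to 58052864, -), Opalin on 19 (41061710 to 41077113, -) and Sox10 on 15 (79154908 to 79165240, -). Mobp shares its chromosome with Gnb5 and lies 44.8 Mb from it. Exons of Cnp share 154 bases with Dnajc7 and exons of Ermn 237 bases with Galnt5, both on the opposite strand, and Mobp shares 79 exon bases with Gm38642 on its own strand. The libraries were made with a stranded kit.

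RefSeq promoter sequences of GRCm38 were found for 7 of the 9 genes, and not for Mbp and Sox10. The bases before the start of Opalin and Cnp are shown because these genes differed between regions in opposite directions, and those of Mobp because they hold the most matches to a SOX core. They were searched on both strands for ACAAAG and AACAAT, cores of the sites that SOX factors bind, for the E-box CAGCTG, and for CTGGCAC, a core of the Myrf site. Capitals mark the matches, and CTTTGT is ACAAAG read on the other strand. The stretches are chr19:41077114-41077363 (- strand), chr11:100574689-100574903 (+) and chr9:120149492-120149706 (+), written 5′ to 3′ and ending at the base before the annotated gene.
Opalin: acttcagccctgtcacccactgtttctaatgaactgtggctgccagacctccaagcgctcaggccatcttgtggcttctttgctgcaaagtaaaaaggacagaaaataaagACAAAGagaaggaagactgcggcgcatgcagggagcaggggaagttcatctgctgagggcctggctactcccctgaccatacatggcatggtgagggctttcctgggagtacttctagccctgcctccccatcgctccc
Cnp: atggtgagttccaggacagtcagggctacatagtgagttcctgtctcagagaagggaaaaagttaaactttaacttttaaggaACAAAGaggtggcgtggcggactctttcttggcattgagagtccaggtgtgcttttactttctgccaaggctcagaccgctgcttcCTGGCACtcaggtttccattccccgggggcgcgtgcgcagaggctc
Mobp: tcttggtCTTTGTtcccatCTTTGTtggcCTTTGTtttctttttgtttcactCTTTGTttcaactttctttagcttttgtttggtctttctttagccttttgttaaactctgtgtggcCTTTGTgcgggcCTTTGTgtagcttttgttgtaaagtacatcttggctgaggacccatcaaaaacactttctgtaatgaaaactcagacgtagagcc
ACAAAG was found in 4 of the 7 genes (Opalin, Cnp, Mag and Mobp), with 6 matches in Mobp, against 16.5% of 32851 promoter windows. CTGGCAC was found in Cnp and Mag, against 4.19% of windows. Neither AACAAT (9.42% of windows) nor CAGCTG (4271 of 32851 windows) was found in any of the 7, and no match overlapped another in the stretches printed. A match of this length is a description of the letters and not a binding site.

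Levels of different genes were compared per kilobase of exon (RPKM). In Gnb5+/+ cortex the order was Mbp (160 ± 13.4 RPKM), Mobp (59.7 ± 6.10), Cnp (47.5 ± 2.71), Mag (26.7 ± 1.16), Cldn11 (24.7 ± 2.73), Mog (15.4 ± 1.54), Ermn (9.65 ± 1.19), Sox10 (7.05 ± 0.634) and Opalin (4.15 ± 0.958). Mag and Cldn11 were neighbours within their SD there, and the other neighbours differed by more than their SD. In Gnb5+/+ cerebellum Cnp (70.3 ± 4.01 RPKM) and Mobp (63.0 ± 8.604) lay within 1 SD of Mobp from each other, and Opalin was last at 1.92 ± 0.583 RPKM. Together the 9 genes took a median of 0.213% to 0.256% of the reads on genes in each group, and Mbp alone had between 41092 and 107941 reads in a library. Opalin, the least abundant, had 131 to 833 reads, so that its values carry more counting error than those of the others.

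**Figure D1:**
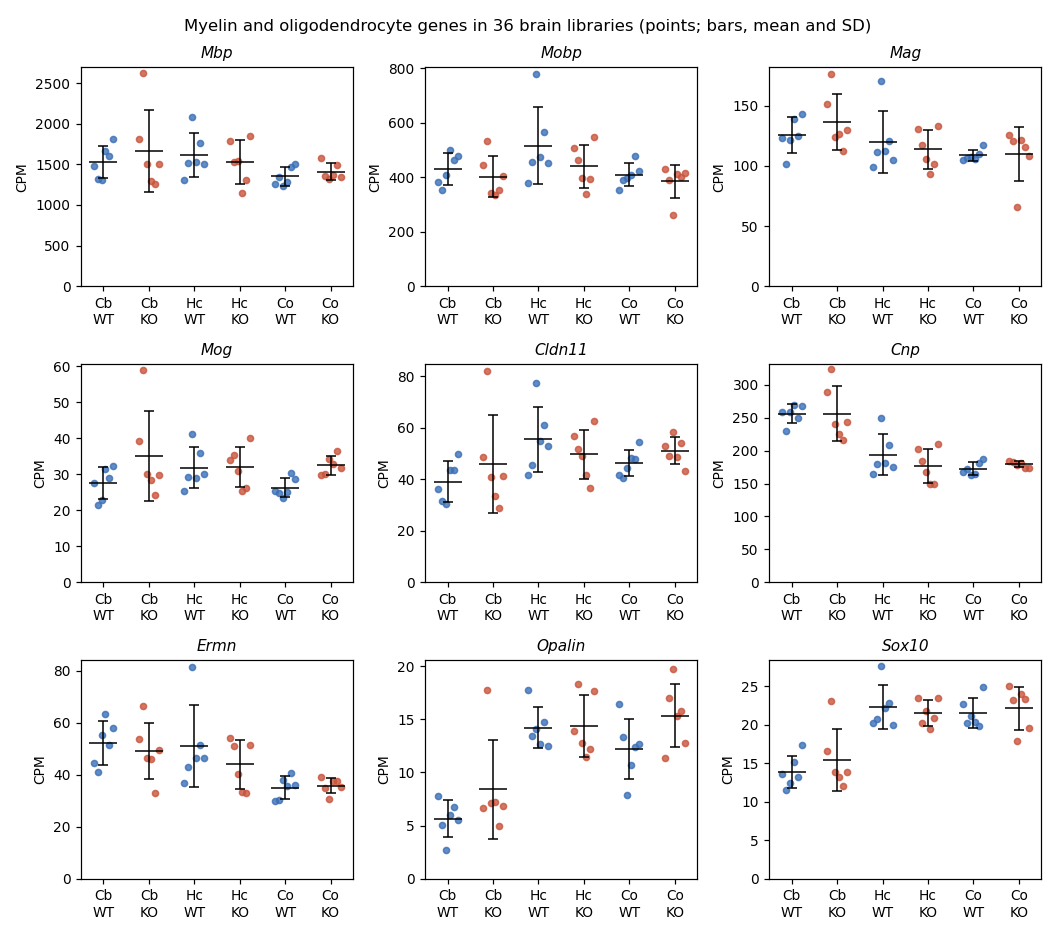
Level of each gene in CPM (vertical axis, from 0) in the 6 groups (horizontal axis; blue, Gnb5+/+; red, Gnb5-/-). Each point is a library and the black bars are mean and SD of 6 mice. In Gnb5+/+ mice the cerebellar points of Opalin and Sox10 lie below those of both other regions, and the highest cerebellar Gnb5-/- point, replicate 2 for every gene, lies within the range of the other regions for both.

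The question asked first of the 3 regions was where each gene was highest in Gnb5+/+ mice. Opalin had 2.74, 5.75 and 7.80 CPM (lowest, median and highest of 6 libraries) in cerebellum, 12.5, 13.8 and 17.7 for hippocampus and 7.89, 12.5 and 16.4 for cortex. Every cerebellar value lay below every value of the other regions. The difference from cortex was -1.13 on the log2 scale (SE 0.19, edgeR adjusted p = 1.53e-05) and that from hippocampus -1.33 (SE 0.19, adjusted p = 1.92e-06). Between hippocampus and cortex the values overlapped and the difference was 0.20 (SE 0.18, adjusted p = 0.388).

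Sox10, the transcription factor that switches on many myelin genes, had 11.5, 13.4 and 17.3 CPM in Gnb5+/+ cerebellum, 19.9, 21.5 and 27.6 for hippocampus and 19.9, 20.7 and 24.9 for cortex. Again no cerebellar library reached the lowest library of another region. The log2 difference was -0.65 (SE 0.09, adjusted p = 2.68e-06) from cortex and -0.68 (SE 0.09, adjusted p = 1.45e-06) from hippocampus, and hippocampus and cortex differed by 0.03 (SE 0.09, adjusted p = 0.806).

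Cnp went the other way, with 230, 259 and 270 CPM in Gnb5+/+ cerebellum, 165, 181 and 250 for hippocampus and 163, 170 and 188 for cortex. All cerebellar values were above all cortical ones, while 1 hippocampal library, replicate 3, reached into the cerebellar range. Cerebellum was higher than cortex by 0.55 (SE 0.07, adjusted p = 9.98e-07) and higher than hippocampus by 0.41 (SE 0.07, adjusted p = 5.11e-05) on the log2 scale, in 6 of 6 mice both times.

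Ermn, the actin-binding protein, had 40.9, 53.3 and 63.2 CPM in Gnb5+/+ cerebellum, 37.0, 46.4 and 81.6 for hippocampus and 29.7, 35.7 and 40.8 for cortex. Cortex was lowest, without overlap with cerebellum. The log2 difference from cortex was 0.56 (SE 0.15, adjusted p = 0.00180) for cerebellum and 0.52 (SE 0.15, adjusted p = 0.00622) for hippocampus, the latter 0.34 (adjusted p = 0.0129) without hippocampal replicate 3, and cerebellum and hippocampus differed by 0.04 (SE 0.15, adjusted p = 0.822).

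For the tight-junction gene Cldn11 the Gnb5+/+ values were 30.3, 39.8 and 49.96 CPM in cerebellum, 41.7, 53.8 and 77.3 for hippocampus and 40.5, 46.2 and 54.5 for cortex. The ranges overlapped, but each of the 6 mice had less Cldn11 in cerebellum than in either other region. Cerebellum was lower than hippocampus by a log2 difference of -0.50 (SE 0.13, adjusted p = 0.00215). Against cortex the difference was -0.26 (SE 0.14, adjusted p = 0.0895), and it passed the test with each mouse as a block (-0.26, adjusted p = 0.0368) and without hippocampal replicate 3 (-0.26, adjusted p = 0.0490). That library enters this comparison only through the spread, filter and scaling that all regions share.

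Mbp and Mobp, the genes of compact myelin, were higher in hippocampus than in cortex of Gnb5+/+ mice, in 6 of 6 mice each. Mbp had 1303, 1519 and 2081 CPM in hippocampus, 1238, 1316 and 1503 in cortex and 1311, 1544 and 1808 in cerebellum. Mobp had 378, 464 and 778 CPM in hippocampus, 353, 403 and 479 in cortex and 352, 436 and 501 in cerebellum. The hippocampal ranges covered those of the cortex in large part, and the highest value of both genes was hippocampal replicate 3. The log2 differences between hippocampus and cortex were 0.24 (SE 0.09, adjusted p = 0.0402) for Mbp and 0.32 (SE 0.13, adjusted p = 0.0463) for Mobp. Without hippocampal replicate 3 both calls were lost, at 0.16 (adjusted p = 0.128) and 0.17 (adjusted p = 0.163). The call of Mbp was also lost under robust empirical Bayes (adjusted p = 0.0509) and without normalization factors (0.0727), and that of Mobp under these (0.0708 and 0.0715) and by DESeq2 (0.0688).

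Mag and Mog, the adhesion proteins of the inner and outer myelin surface, were not called between any pair of regions in Gnb5+/+ mice. Without normalization factors Mag (0.24, adjusted p = 0.0394) and Mbp (0.21, adjusted p = 0.0499) were called higher in cerebellum than in cortex. Mag had 102, 124 and 143 CPM in cerebellum, 98.8, 112 and 171 for hippocampus and 105, 107 and 118 for cortex. Without hippocampal replicate 3, whose 171 CPM stood apart, Mag was called higher in cerebellum, by 0.19 over cortex (adjusted p = 0.0104) and 0.20 over hippocampus (adjusted p = 0.0132). Mog had 21.4, 28.3 and 32.3 CPM in cerebellum, 25.5, 29.6 and 41.1 for hippocampus and 23.5, 25.2 and 30.3 for cortex. Hippocampus and cortex differed in Mog by 0.26 (SE 0.11, adjusted p = 0.0603), in 6 of 6 mice, and this difference passed the test with each mouse as a block (0.26, adjusted p = 0.0380) and by DESeq2 (0.26, adjusted p = 0.0432).

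Counted together for Gnb5+/+ mice, 2 of the 9 genes were called higher and 2 lower in cerebellum than in cortex, where 37.2% and 40.3% of the 18577 genes tested were called in these directions (77.4% in either). Between cerebellum and hippocampus 1 was called higher and 3 lower, against 37.6% and 39.5% of genes (77.2% in either). Between hippocampus and cortex 3 were called higher and 0 lower, against 23.8% and 24.6% (48.3% in either). The share of the 9 genes that was called thus lay below that of all genes in both cerebellar comparisons. The median log2 difference of the 9 genes was 0.06 for cerebellum against cortex, -0.21 for cerebellum against hippocampus and 0.24 for hippocampus against cortex, beside -0.02 and -0.01 over all genes in the cerebellar comparisons.

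**Figure D2:**
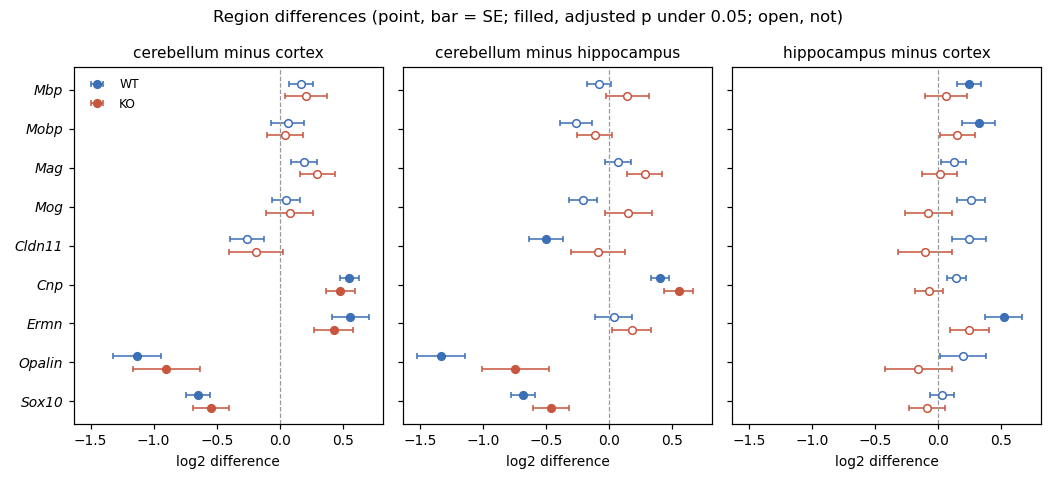
Log2 difference between regions (horizontal axis) of each gene (vertical axis) in Gnb5+/+ (blue) and Gnb5-/- (red) mice, with the SE as a bar, filled where the adjusted p was under 0.05. Opalin and Sox10 lie to the left and Cnp to the right in both cerebellar panels, for both genotypes.

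The regions of Gnb5-/- mice were compared in the same way in 18 other libraries. Opalin had 4.93, 6.995 and 17.8 CPM in Gnb5-/- cerebellum, 11.5, 13.3 and 18.3 for hippocampus and 11.4, 15.5 and 19.7 for cortex. A single cerebellar library, replicate 2 at 17.8 CPM, overlapped the other regions, as the next highest had 7.18 CPM. Cerebellum was lower by a log2 difference of -0.90 (SE 0.27, adjusted p = 0.00844) from cortex and -0.74 (SE 0.27, adjusted p = 0.0257) from hippocampus, and without that library by -1.29 (adjusted p = 7.20e-06) and -1.13 (adjusted p = 2.95e-05). Sox10 had 12.1, 13.8 and 23.1 CPM in Gnb5-/- cerebellum, 19.5, 21.3 and 23.5 for hippocampus and 17.8, 23.2 and 25.1 for cortex. Here too the 23.1 CPM belonged to replicate 2, and the differences were -0.55 (SE 0.14, adjusted p = 0.00302) from cortex and -0.46 (SE 0.14, adjusted p = 0.0102) from hippocampus.

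Cnp had 217, 242 and 323 CPM in Gnb5-/- cerebellum, above all 6 libraries of hippocampus (149, 176 and 210) and of cortex (174, 180 and 184). The log2 differences of 0.48 (SE 0.115, adjusted p = 0.00164) from cortex and 0.55 (SE 0.115, adjusted p = 0.000475) from hippocampus remained called without cerebellar replicate 2, at 0.39 (adjusted p = 0.00267) and 0.46 (adjusted p = 0.000699). Ermn had 33.1, 48.0 and 66.4 CPM in Gnb5-/- cerebellum, 33.2, 45.7 and 54.3 for hippocampus and 30.8, 36.3 and 39.1 for cortex. Its difference of 0.43 between cerebellum and cortex (SE 0.16, adjusted p = 0.0266) was lost without cerebellar replicate 2 (0.31, adjusted p = 0.0662) and without the 3 libraries (0.31, adjusted p = 0.0716). Cldn11, not called in any region pair of Gnb5-/- mice, had a difference of -0.19 between cerebellum and cortex (adjusted p = 0.478) that became -0.46 (adjusted p = 0.0154) without the same library. Without all 3 libraries with few reads outside genes it was called lower than in cortex (-0.34, adjusted p = 0.0482) and in hippocampus (-0.36, adjusted p = 0.0203). Mag was higher in Gnb5-/- cerebellum by 0.30 than in cortex (adjusted p = 0.0824) and by 0.28 than in hippocampus (adjusted p = 0.0956), and the latter was called without normalization factors (0.39, adjusted p = 0.0371) and without cortical replicate 3 (0.28, adjusted p = 0.0424). Without normalization factors the differences of Opalin and Sox10 from hippocampus were -0.63 (adjusted p = 0.0539) and -0.36 (adjusted p = 0.0533).

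In Gnb5-/- mice 2 genes were called higher and 2 lower in cerebellum than in cortex, the same 4 as in Gnb5+/+ mice, against 25.0% and 29.1% of the 18457 genes tested (54.1% in either direction). Between cerebellum and hippocampus 1 was called higher and 2 lower, against 26.0% and 27.9% (53.9%). No gene of the 9 was called between hippocampus and cortex by edgeR or DESeq2, where 21.6% of genes were, nor passed an unadjusted p under 0.05, where 35.4% of genes did, and where the 9 differences ran from -0.16 to 0.25. The regional differences were not called different between genotypes for any of the 9 genes, as the interaction tests described further on show.

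The remaining genes of the lineage were taken from 5 lists with 49 genes, all of which passed the filter on low counts. The values named from these lists between regions were chosen after they were seen. The precursor list had the lowest median difference between cerebellum and cortex, at -0.90 on the log2 scale. Pdgfra, the receptor by which precursors respond to platelet-derived growth factor, had 21.8 to 25.8 CPM in Gnb5+/+ cerebellum, 63.3 to 74.5 in hippocampus and 65.0 to 82.2 in cortex. Its log2 difference from cortex was -1.68 (adjusted p = 1.21e-16). The proteoglycan Cspg4 (NG2), the receptor Gpr17 and the matrix protein Matn4 fell by 1.56, 1.83 and 2.02, and Neu4 and Itpr2 by 0.90 and 0.39, all 6 called. In the same list Vcan, Enpp6 and Lhfpl3 were called higher in cerebellum, by 0.66, 0.71 and 0.17. Over all genes 40.3% were called lower and 37.2% higher. In Gnb5-/- mice 5 of the 9 were called lower and 2 higher, against 29.1% and 25.0% of all genes, with Matn4, Pdgfra, Gpr17, Cspg4 and Neu4 at -1.92, -1.82, -1.72, -1.34 and -0.80. Without the 3 libraries with few reads outside genes 6 were called lower and 2 higher, against 37.9% and 35.5% of all genes.

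Of 10 transcription factors of the lineage, 6 were called lower and 3 higher in Gnb5+/+ cerebellum than in cortex. Over all genes 40.3% and 37.2% were called in these directions (77.4% in either). Olig1 and Olig2, which act beside Sox10 throughout the lineage, fell by 1.27 and 1.13 on the log2 scale, Zfp488 by 1.29, Sox8, the closest relative of Sox10 in this list, by 0.955, and Nkx6-2 and Tcf7l2 by 0.66 and 0.20. St18, Zfp536 and Nkx2-2 rose by 4.75, 1.21 and 0.69, and Myrf, the factor of the maturing cell, differed by -0.04 (adjusted p = 0.746). In Gnb5-/- mice 5 were called lower and the same 3 higher, against 29.1% and 25.0% of all genes, with Olig1 at -1.24 and Olig2 at -1.09. Without the 3 libraries with few reads outside genes 6 were called lower and 3 higher, against 37.9% and 35.5% of all genes.

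Of 13 other structural myelin genes 9 were called higher and 2 lower in Gnb5+/+ cerebellum than in cortex, 6 and 2 in Gnb5-/- mice. Among them the connexins Gjc3 and Gjb1, which join glial cells by gap junctions, rose by 1.22 and 0.74 and Tspan2 by 0.69, while Omg and Mal fell by 0.73 and 0.40. Of 8 genes of myelin lipid and metabolism 4 were called higher and 2 lower, with the transferrin gene Trf at 1.32 and Ugt8a, which makes the galactolipids of myelin, at 0.66, against Gal3st1 at -0.67. Of 9 further genes of mature oligodendrocytes 5 were called higher and 0 lower, the protease gene Klk6 by 2.53 (10.2 ± 1.14 CPM in cerebellum and 1.74 ± 0.437 in cortex) and Adamts4 by 1.40. Over all 49 genes 24 were called higher and 16 lower in Gnb5+/+ mice, beside 37.2% and 40.3% of all genes. In Gnb5-/- mice 18 were called higher and 13 lower, beside 25.0% and 29.1% of all genes, and without the 3 libraries with few reads outside genes 19 and 17, beside 35.5% and 37.9%. Genes of these lists, whether called higher or lower, can also be used by other brain cells or by other stages of the lineage. The part of those cells in these values was not tested.

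Markers of other cells moved with the same regions. Over all genes 40.3% were called lower and 37.2% higher in Gnb5+/+ cerebellum than in cortex, and 29.1% and 25.0% in Gnb5-/- mice. All 6 microglial genes were called lower there in both genotypes. Their summed level was 62.7 to 84.3 CPM in cerebellum and 254 to 305 in cortex, and none of them was at 0. Of 5 endothelial genes 5 were called lower in Gnb5+/+ mice and 1 in Gnb5-/- mice. Of 8 neuronal genes 4 were called lower in each genotype, with 4 called higher in Gnb5+/+ and 2 in Gnb5-/- mice. All 4 genes of cerebellar neurons were called higher. The 7 astrocyte genes summed to 4325 to 5310 CPM in cerebellum and 3151 to 7166 in cortex, with 3 called higher and 2 lower in each genotype. All 5 genes that mark the striatum were called lower in Gnb5+/+ cerebellum and hippocampus than in cortex, and 4 in each comparison of Gnb5-/- mice. The striatal genes summed to 380 to 797 CPM in Gnb5+/+ cortex, 228 to 343 in cerebellum and 153 to 169 in hippocampus. Between hippocampus and cortex 48.3% of all genes were called in either direction in Gnb5+/+ mice and 21.6% in Gnb5-/- mice. The part of these cells or of striatal tissue in the differences of the oligodendrocyte genes was not tested.

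**Figure D3:**
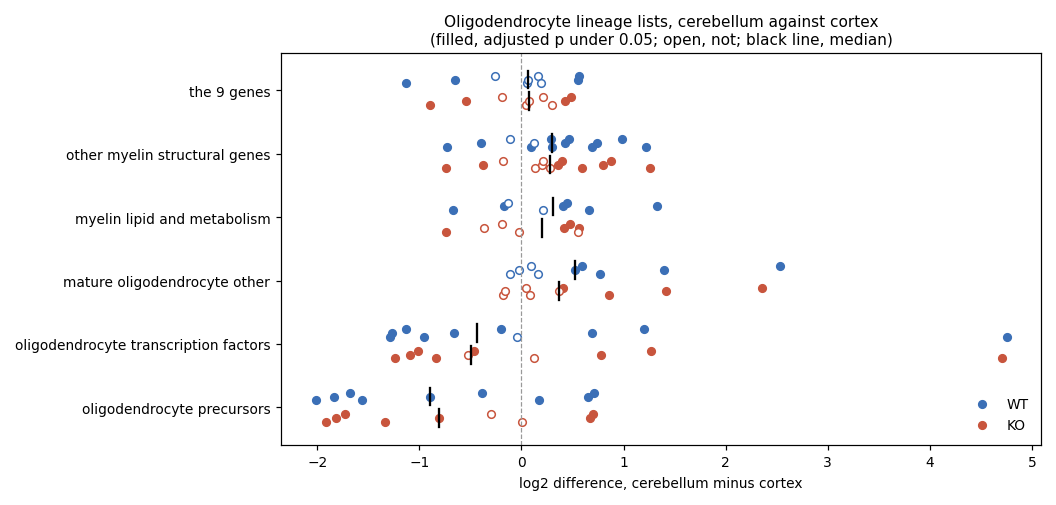
Log2 difference between cerebellum and cortex (horizontal axis) for each gene of 6 lists (vertical axis) in Gnb5+/+ (blue) and Gnb5-/- (red) mice, filled where the adjusted p was under 0.05, with a black line at the median. In Gnb5+/+ mice 6 of 9 precursor genes and 6 of 10 transcription factors are filled to the left of 0. To the right 3 of each are filled, and St18 is the farthest point there at 4.75. Over all genes 40.3% were called lower and 37.2% higher.

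The comparison of genotypes asked whether loss of Gnb5 changed the myelin genes. By edgeR 0 of the 9 genes were called in cerebellum, hippocampus or cortex, where 0.0817%, 0.165% and 0.0557% of the genes tested were. By DESeq2 the count was also 0 in each region. Without cerebellar replicate 2 of the Gnb5-/- mice 62 genes were called in cerebellum in place of 14, none of the 9 among them. At an unadjusted p under 0.05, 0, 0 and 1 of the 9 passed, against 5.85%, 7.70% and 7.39% of all genes. The 9 log2 differences had a median of 0.13 in cerebellum, -0.09 in hippocampus and 0.09 in cortex, where the medians over all genes were 0.00, 0.00 and 0.01. In cerebellum 7 of the 9 were above 0, in hippocampus 2 and in cortex 8. Without cerebellar replicate 2 of the Gnb5-/- mice 4 were above 0 in cerebellum, with a median of -0.02. Leaving out hippocampal replicate 3 of the Gnb5+/+ mice gave 4 above 0 in hippocampus, with a median of 0.00. In cortex all 9 were above 0 without the 3 libraries with few reads outside genes, with a median of 0.06 and none called. There 2 of the 9 passed an unadjusted p under 0.05, against 875 of 18270 genes.

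Mog in cortex was the gene with the smallest p. It had 23.5, 25.2 and 30.3 CPM (lowest, median and highest) in Gnb5+/+ mice and 29.7, 32.2 and 36.4 CPM in Gnb5-/- mice. All 6 Gnb5-/- values were above the Gnb5+/+ mean, and the ranges overlapped through a single Gnb5+/+ library. The log2 difference was 0.34 (95% confidence interval 0.13 to 0.56), with an unadjusted p of 0.00345 and an adjusted p of 0.474 in edgeR. The two-sided exact permutation test gave p = 0.00433, and 0.117 after adjustment over the 27 tests of 9 genes in 3 regions, so that the difference failed both corrections. Without the 3 libraries with few reads outside genes it was 0.24 (adjusted p = 0.816). In cerebellum Mog differed by 0.36 (interval -0.10 to 0.82), and by 0.14 without replicate 2, and in hippocampus by 0.00 (interval -0.28 to 0.29).

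Opalin had the widest intervals in cerebellum and cortex, but not in hippocampus. In cerebellum its difference was 0.59 (interval -0.12 to 1.31, adjusted p = 0.583), where Gnb5+/+ libraries had 2.74 to 7.80 CPM and Gnb5-/- libraries 4.93 to 17.8, and without replicate 2 it was 0.21. In cortex it was 0.37 (interval -0.05 to 0.79, adjusted p = 0.474), from 7.89 to 16.4 CPM against 11.4 to 19.7, and in hippocampus 0.01 (interval -0.27 to 0.29). A difference of up to 2.47-fold in cerebellum thus lay within the interval.

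For the compact myelin genes the intervals were narrower than those of Opalin in cerebellum and cortex, while in hippocampus that of Mobp was wider. Mbp differed by 0.13 in cerebellum (interval -0.27 to 0.53), -0.09 in hippocampus (-0.36 to 0.18) and 0.10 in cortex (-0.08 to 0.27). Mobp differed by -0.09 (-0.39 to 0.21), -0.24 (-0.59 to 0.11) and -0.06 (-0.28 to 0.15) in the same order. Mag, Cnp, Cldn11, Ermn and Sox10 had differences between -0.22 and 0.24, and the interval of each included 0 in all 3 regions. Cnp in cortex was the most tightly bounded, at 0.09 (-0.06 to 0.23), a ratio between 0.958 and 1.18. Over all 9 genes the intervals lay between ratios of 0.651 and 1.22 in hippocampus and between 0.822 and 1.73 in cortex. A loss or gain of a myelin transcript by 2-fold was thus outside them in both regions. In cerebellum they lay between 0.743 and 2.47, where the interval of Opalin reached past 2-fold. The next highest bound there was 1.77, for Mog, and the bound of 1.73 in cortex was that of Opalin.

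**Figure D4:**
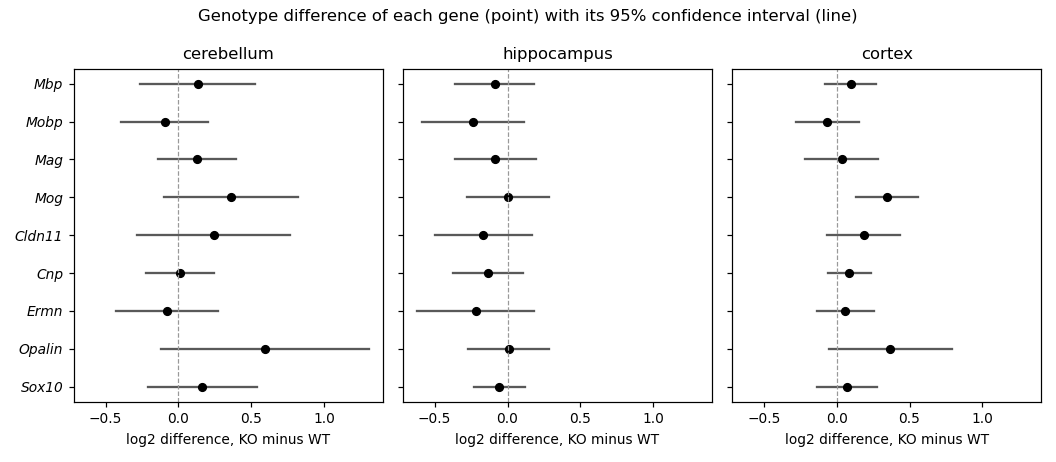
Log2 difference between Gnb5-/- and Gnb5+/+ mice (horizontal axis) of each gene (vertical axis) in 3 regions, with the 95% confidence interval as a line. Of 27 intervals, the one that leaves out 0 is that of Mog in cortex.

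With all libraries none of the 49 other lineage genes was called between genotypes by edgeR, and the smallest adjusted p among them was 0.583 in cerebellum, 0.549 in hippocampus and 0.474 in cortex. At an unadjusted p under 0.05 there were 1, 3 and 4 of them (2.04%, 6.12% and 8.16%), against 5.85%, 7.70% and 7.39% of all genes. Among the genes of smallest p in each list were, in cerebellum, Pdgfra (-0.21), Ninj2 (0.66), Qdpr (0.54), Anln (-0.24) and Nkx6-2 (0.55), followed by Cspg4 (-0.24), Ppp1r14a (0.70), Ugt8a (-0.17) and Nkx2-2 (0.29). In hippocampus these were Trf (-0.48), Olig1 (-0.15), Anln (-0.37), Cspg4 (-0.13) and Gsn (-0.14), then Cers2 (-0.10), Olig2 (-0.20), Hapln2 (-0.32), Vcan (0.07) and Evi2a (-0.17). In cortex they included Aspa (0.45), Ninj2 (0.51), Zfp488 (-0.49) and Cspg4 (-0.45), then Qdpr (0.74), Evi2a (0.35), Tspan2 (0.16), Tcf7l2 (0.28) and Itpr2 (-0.30). These values are log2 differences that did not pass the adjusted test.

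Single libraries carried several of them. Qdpr had 331 CPM in cerebellar replicate 2 of the Gnb5-/- mice and 98.7 to 118 CPM in the other 5, and without that library its difference was 0.08 (adjusted p = 0.559), that of Ppp1r14a 0.17 (0.703) and that of Nkx6-2 0.06 (0.874). In cortex Qdpr had 393 and 192 CPM in replicates 3 and 5 and 114 to 127 in the other 4, and without these its difference was also 0.08 (adjusted p = 0.979), that of Aspa 0.22 and that of Evi2a 0.09. Trf, the transferrin gene, went the other way. It had 10.3, 16.1 and 17.4 CPM in Gnb5+/+ cerebellum and 6.99, 8.09 and 33.1 CPM in Gnb5-/- cerebellum, where the 33.1 CPM belonged to replicate 2 and the next highest value was 10.96 CPM. With this library the log2 difference was -0.27 (adjusted p = 0.727), and without it Trf was called lower in Gnb5-/- cerebellum, by -0.89 (SE 0.14, adjusted p = 0.0104). It was the one lineage gene of 49 called there without that library, where 0.145% and 0.214% of genes were called higher and lower, and 5 of the 9 members were then below 0 without being called. None of the 49 was called in hippocampus without replicate 3 of the Gnb5+/+ mice or in cortex without replicates 3 and 5 of the Gnb5-/- mice. These refits were chosen after the values were seen.

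Whether the genotype effect differed between regions was tested as an interaction in all 36 libraries, with each mouse as a block. None of the 9 genes was called for hippocampus against cortex, cerebellum against cortex or cerebellum against hippocampus, where 0%, 0.0103% and 0.0258% of 19388 genes were. At an unadjusted p under 0.05, 0 of the 9 passed in each, against 4.42%, 3.72% and 3.72% of genes. The smallest unadjusted p was 0.0620, for Opalin between cerebellum and hippocampus, with a difference of 0.53 (SE 0.27, adjusted p = 0.884). The differences between hippocampus and cortex ran from -0.40 to -0.10 and those between cerebellum and hippocampus from 0.11 to 0.53. These comparisons share the hippocampal libraries, and the 9 genes share each library, so that the common sign is not independent support.

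The 9 genes varied together from library to library within the groups. After the group mean was subtracted, the log2 CPM of Mbp had a Pearson r of 0.96 with the mean of the other 8 over 36 libraries, and that of Mog, Cnp and Cldn11 0.94, 0.91 and 0.90. Sox10, Ermn, Mobp and Mag followed with 0.84, 0.81, 0.80 and 0.76. Opalin followed the others least, at 0.44, and at 0.25 without the 3 libraries with few reads outside genes, where Mag rose to 0.93. Libraries share depth and dissection, and these values describe the 36 libraries without a test.

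Single libraries carried much of this spread. Cerebellar Gnb5-/- replicate 2 was the highest of its group for all 9 genes, with a sum of 3900 CPM against 2043 to 2866 in the other 5. In this library the choroid plexus genes summed to 849 CPM, where the lowest of the group was 13.2, and the precursor genes to 104 CPM, the lowest of the group. Hippocampal Gnb5+/+ replicate 3 had a sum of 3520 CPM against 2087 to 2837 in the other 5, with choroid plexus genes at 563 CPM beside a group median of 87.5, although replicate 5 of that group had more, at 1569 CPM. The same mouse had the lowest level of its group for 3 of the 9 genes in cerebellum and for 4 in cortex. Cortical Gnb5-/- replicate 3 was the lowest for 5 genes and the highest for 2, and its precursor genes summed to 145 CPM against a group median of 296. The part of RNA quality or dissection in these libraries was not tested.

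**Figure D5:**
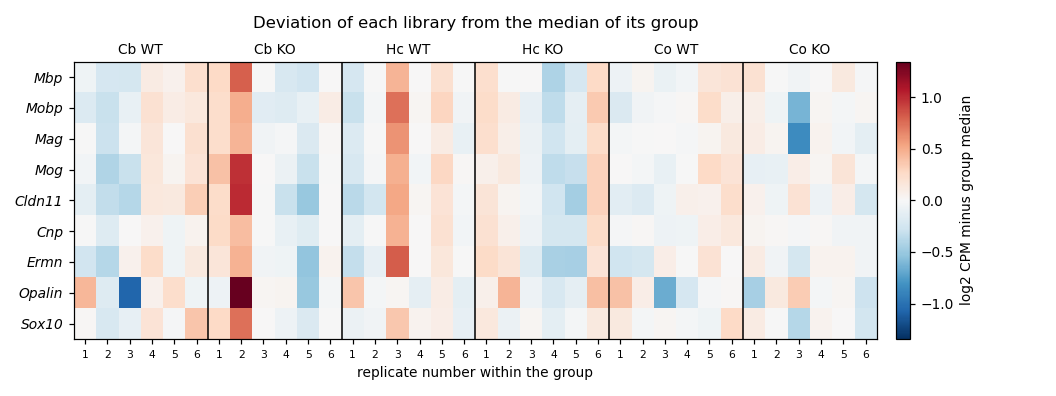
Log2 CPM of each gene (rows) in each of 36 libraries (columns, by group and replicate) after subtraction of the group median, red above and blue below it. Replicate 2 of Gnb5-/- cerebellum and replicate 3 of Gnb5+/+ hippocampus are red in nearly all rows, with Opalin near its group median in the latter.

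Among other protein-coding genes, those most like the mean of the 9 over the 36 libraries included Bcas1 (r = 0.88), Prr18, Insc, Tmem98, Cd82, Tmem88b, Mal, Gatm and Gsn (0.72), out of 15523 genes. With group means subtracted they included Plekhb1 (r = 0.93), Prr18, Tmem88b, Bcas1, Fa2h, Cd82, Cyp2j12, Insc and Gatm (0.84). Prr18, Insc, Cd82, Tmem88b, Bcas1 and Gatm stood in both, and Prr18, Insc, Cd82 and Gatm were in none of the lineage lists. Without the 3 libraries named above the highest r was that of Mal (0.96), and Myrf was among the 10 (0.90).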

How the data were processed

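RNA of whole cerebellum, both hippocampi and whole cerebral cortex was sequenced by the authors with a stranded, single-end total RNA protocol, and 36 heart libraries were used for comparison. Adapters were trimmed with cutadapt 1.8, ribosomal and low-complexity reads were removed, and reads were aligned with STAR 2.5.3a and assigned to genes with HTSeq 0.9.1. The deposited values are raw counts of reads per gene. Rows that name no gene were left out of library sizes, and reads outside genes were 6.86% to 17.0% of those in brain libraries. Of 53715 gene IDs, 53620 matched the annotation.

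Counts were tested with edgeR 4.0.16 (quasi-likelihood, TMM factors, filterByExpr with a minimum count of 10) in R 4.3.3, with Benjamini-Hochberg adjustment over all genes tested and a threshold of 0.05. Genotypes were compared within a region and regions within a genotype. The reported region comparisons had no block for the mouse, so that libraries of the same mouse were treated as independent. The interaction was fitted over 36 libraries with each mouse as a block. Same-mouse libraries deviated together in Gnb5+/+ mice (correlations of 0.281 to 0.460). In Gnb5-/- mice the correlations were 0.109 to 0.325 for cerebellum and hippocampus and 0.0551 to 0.248 for hippocampus and cortex. For Gnb5-/- cerebellum and cortex they ran from -0.571 to 0.553, with a median of 0.174 within a mouse and 0.267 between different mice. Intervals are 95% with 10 residual degrees of freedom, and they and the p-values cover the spread between these mice. CPM are TMM-normalized, and RPKM divides them by exon length. Alternatives were DESeq2 1.42.0, RLE or no factors, other filters, robust empirical Bayes, blocks, and libraries left out. Scripts were tested on simulated data.

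The 9 genes are all named. Other lineage genes are named between genotypes where called, or else as the 2 of smallest p in each list, and the genes most alike are the 10 of highest Pearson r. Some genes that these rules pick are not reported here. The members and lists were chosen with earlier results of these data known.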

Additional observations from a re-analysis of the deposited data

Results flagged for a closer look

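In 7 of the 54 sets of 6 libraries examined (9 genes in 6 groups), the highest or lowest library lay apart from the other 5, with a gap to the nearest value that passed Dixon's 95% critical value. Chance gives such a gap in about 1 in 20 groups, and the 7 belong to 3 libraries.

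In Gnb5-/- cerebellum, replicate 2 had 17.8 CPM of Opalin where the next library had 7.18, and 82.1 CPM of Cldn11 where the next had 48.8. In Gnb5+/+ hippocampus, replicate 3 had 171 CPM of Mag against 121 in the next library, 81.6 CPM of Ermn against 51.6, and 27.6 CPM of Sox10 against 22.8. In Gnb5-/- cortex, replicate 3 was the low one, with 65.9 CPM of Mag where the next had 108, and 263 CPM of Mobp where the next had 391.

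Cerebellar replicate 2 and cortical replicate 3 of the Gnb5-/- mice were also the libraries with the fewest reads outside genes, at 8.03% and 6.86%, while hippocampal replicate 3 of the Gnb5+/+ mice had 12.7%. Whether RNA quality or dissection had a part in these values was not tested.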

How the results depend on the processing

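Of 234 genotype differences recomputed for the 9 genes under other settings, 222 kept their direction and their side of the threshold and 12 changed sign. Of 513 differences between regions 468 kept both, 11 lost and 14 gained a call and 20 changed sign, and of 297 interaction values 276 kept both and 21 changed sign. No value that changed sign was called, and no genotype difference of the 9 genes was called under any setting run, with a smallest adjusted p of 0.251. Replicate numbers joined different animals between genotypes, and same-numbered libraries did not deviate together (0 of 6 pairs with a correlation over 0.1 in each region). Leaving out hippocampal replicate 3 of Gnb5+/+ mice or cortical replicate 5 of Gnb5-/- mice was also chosen after seeing the data. The values that follow have the reported value in parentheses, and the cause of these changes was not tested. Where several libraries were left out, a comparison lost only those that it held.

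With at least 10 counts required in every library, the counts of calls were 9 higher (15) between genotypes in hippocampus, 6 in all (10) and 2 higher (4) between genotypes in cortex, 2 higher (1) in the interaction of cerebellum and cortex. In the same setting the log2 differences that changed sign were those of Mobp -0.0019 (0.040) between cerebellum and cortex of Gnb5-/- mice. By DESeq2, the counts of calls were 49 in all (14), 18 higher (5) and 31 lower (9) between genotypes in cerebellum, 104 in all (29), 52 higher (15) and 52 lower (14) between genotypes in hippocampus, 25 in all (10), 10 higher (4) and 15 lower (6) between genotypes in cortex. With RLE size factors, the counts of calls were 2 higher (1) in the interaction of cerebellum and cortex. In the same setting the log2 differences that changed sign were those of Mbp 0.0024 (-0.0082) in the interaction of cerebellum and cortex. With no filter on low counts, the log2 differences that changed sign were those of Cnp -0.0063 (0.0090) between genotypes in cerebellum, Mbp 0.019 (-0.0082) and Cldn11 0.014 (-0.016) in the interaction of cerebellum and cortex. Without normalization factors, the counts of calls were 1 higher (3) of the 9 genes between hippocampus and cortex of Gnb5+/+ mice, 4 higher (2) of the 9 genes between cerebellum and cortex of Gnb5+/+ mice, 2 higher (1) and 0 lower (2) of the 9 genes between cerebellum and hippocampus of Gnb5-/- mice. In the same setting the log2 differences that changed sign were those of Mog -0.015 (0.0039) and Opalin -0.013 (0.0079) between genotypes in hippocampus, Mag -0.054 (0.012) between hippocampus and cortex of Gnb5-/- mice, Cldn11 0.017 (-0.089) between cerebellum and hippocampus of Gnb5-/- mice. With no replicate block in the interaction tests, the counts of calls were 4 in all (2) and 3 higher (1) in the interaction of cerebellum and cortex. In the same setting the log2 differences that changed sign were those of Mbp 0.038 (-0.0082), Mog 0.022 (-0.040) and Cldn11 0.061 (-0.016) in the interaction of cerebellum and cortex. With the replicate number as a block, whose numbers join different animals between genotypes, the counts of calls were 5 in all (14), 1 higher (5) and 4 lower (9) between genotypes in cerebellum, 19 in all (29) and 9 lower (14) between genotypes in hippocampus, 6 in all (10) and 2 higher (4) between genotypes in cortex. In the same setting the log2 differences that changed sign were those of Cnp -0.0078 (0.0090) between genotypes in cerebellum, Opalin -0.0045 (0.0079) between genotypes in hippocampus. With robust empirical Bayes, the counts of calls were 1 higher (3) of the 9 genes between hippocampus and cortex of Gnb5+/+ mice. Without the 3 libraries with few reads outside genes, an alternative chosen after seeing the data, the counts of calls were 26 in all (10), 11 higher (4) and 15 lower (6) between genotypes in cortex, 7873 in all (3984), 4027 higher (1799) and 3846 lower (2185) between hippocampus and cortex of Gnb5-/- mice, 1 higher (2) of the 9 genes between cerebellum and cortex of Gnb5-/- mice, 3 in all (0), 2 higher (0) and 1 lower (0) in the interaction of hippocampus and cortex, 15 in all (2), 7 higher (1) and 8 lower (1) in the interaction of cerebellum and cortex, 18 in all (5), 6 higher (2) and 12 lower (3) in the interaction of cerebellum and hippocampus. In the same setting the log2 differences that changed sign were those of Mobp 0.0024 (-0.064) between genotypes in cortex, Mog 0.041 (-0.077), Mag -0.074 (0.012), Cldn11 0.028 (-0.10) and Opalin 0.019 (-0.16) between hippocampus and cortex of Gnb5-/- mice, Mog -0.042 (0.078) and Mobp -0.14 (0.040) between cerebellum and cortex of Gnb5-/- mice, Mbp -0.055 (0.15) and Mog -0.083 (0.15) between cerebellum and hippocampus of Gnb5-/- mice, Mag -0.019 (0.095), Cldn11 0.012 (-0.016) and Sox10 -0.061 (0.076) in the interaction of cerebellum and cortex. With 1 of the 4 libraries that stood apart left out in turn, the lowest and highest counts were 62 in all (14), 25 higher (5) and 37 lower (9) between genotypes in cerebellum, 10 to 22 in all (10), 3 to 8 higher (4) and 7 to 14 lower (6) between genotypes in cortex, 1 higher (3) of the 9 genes between hippocampus and cortex of Gnb5+/+ mice, 2 higher (1) of the 9 genes between cerebellum and hippocampus of Gnb5+/+ mice. In the same way they were 1 to 2 higher (2) of the 9 genes between cerebellum and cortex of Gnb5-/- mice, 1 to 2 higher (1) of the 9 genes between cerebellum and hippocampus of Gnb5-/- mice, 1 to 3 higher (1) and 2 to 4 in all (2) in the interaction of cerebellum and cortex, 1 to 6 in all (5), 0 to 3 higher (2) and 1 to 3 lower (3) in the interaction of cerebellum and hippocampus. The log2 differences that changed sign when such a library was left out were Mbp -0.059 (0.13), Cnp -0.079 (0.0090) and Cldn11 -0.021 (0.24) between genotypes in cerebellum, Mag 0.042 (-0.084) and Sox10 0.013 (-0.056) between genotypes in hippocampus, Mobp -0.081 to 0.0027 (-0.064) between genotypes in cortex, Mag -0.0029 (0.12) and Sox10 -0.037 (0.032) between hippocampus and cortex of Gnb5+/+ mice. Further ones were Mbp 0.0085 (-0.076) between cerebellum and hippocampus of Gnb5+/+ mice, Mag -0.078 to 0.031 (0.012) between hippocampus and cortex of Gnb5-/- mice, Mog -0.15 to 0.13 (0.078) and Mobp -0.072 to 0.053 (0.040) between cerebellum and cortex of Gnb5-/- mice, Mbp -0.049 to 0.15 (0.15) and Mog -0.076 to 0.15 (0.15) between cerebellum and hippocampus of Gnb5-/- mice. The others were Mag -0.18 to 0.027 (-0.095) in the interaction of hippocampus and cortex, Opalin -0.089 to 0.28 (0.14), Sox10 -0.080 to 0.13 (0.076), Mbp -0.18 to 0.071 (-0.0082), Mog -0.22 to 0.076 (-0.040), Cldn11 -0.23 to 0.11 (-0.016) and Mobp -0.14 to 0.0077 (-0.043) in the interaction of cerebellum and cortex, Mobp -0.033 to 0.11 (0.12) and Ermn -0.022 to 0.11 (0.11) in the interaction of cerebellum and hippocampus.

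Opalin, with 131 to 833 reads in a library, had the widest interval of a genotype difference (ratios of 0.919 to 2.47 in cerebellum) and Cnp in cortex one of 0.958 to 1.18. Cerebellar replicate 2 of Gnb5-/- mice moved Opalin in cerebellum from 0.21 to 0.59. The p-values of the region comparisons rest on 6 mice that each gave all 3 regions, and with each mouse as a block Mog between hippocampus and cortex, Cldn11 between cerebellum and cortex and Mobp between cerebellum and hippocampus (-0.24, adjusted p = 0.0414) gained calls in Gnb5+/+ mice.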
